A study of Mus musculus with 36 samples.

Results

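The proteasome genes described here are the 41 genes whose name in the array files starts with Psma, Psmb, Psmc, Psmd, Psme, Psmf or Psmg and a number, without Psmb8, Psmb9 and Psmb10. Those 3 encode the catalytic subunits of the immunoproteasome and are described further on. All 41 were among the 16502 genes tested, each through its brightest probe, and 40 of them encode proteasome subunits, activators, an inhibitor or assembly chaperones. The remaining gene, Psmc3ip, encodes a meiotic recombination protein that only shares the prefix. It was counted as the rule has it and is described apart.

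The proteasome breaks down proteins that carry ubiquitin chains, and with them damaged and short-lived regulatory proteins of the cytosol and nucleus. Its 20S core is a barrel of alpha and beta rings with the cutting sites inside. A 19S particle at the end of the barrel binds ubiquitin, unfolds the protein with a ring of ATPases and feeds it in. Other caps (the Psme products) can take the place of the 19S particle, and chaperones assemble both parts. Genes of the subunits are known to be induced together, in many cell types, by the transcription factor Nfe2l1 when proteasome activity falls short. In fat, the enzyme acts on lipid-droplet proteins and on enzymes and receptors of lipid metabolism.

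RNA was taken from the epididymal fat pad, a white adipose depot, of 36 male adult C57BL/6J mice, 12 in each of 3 groups. During an adaptation of 3 weeks every mouse ate ad libitum from a purified diet in which fat supplied 30% of the energy. The t0 mice were sampled then, HF-AL mice ate it ad libitum for 12 more weeks, and HF-DR mice received it for 12 weeks in a restricted amount that the labels give as 70 energy percent, with added vitamins and minerals. No mouse carried a genetic change, and no group received a low-fat diet. The Cy5-labelled RNA of each mouse was hybridised to 1 Agilent array with a Cy3-labelled pool of all samples, always in this dye orientation. Each value is therefore a log2 ratio of an animal to that pool, and a difference is one of mean log2 ratios between 2 groups of 12 arrays. A gene was called higher or lower where its adjusted p was under 0.05 (limma, Benjamini-Hochberg over all genes tested).

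Between 44.6% and 86.3% of probes were well above background on an array, and the number of arrays limits the precision. All 10 markers of mature adipocytes were well above background on all 36 arrays. Libraries HF-DR 7, 8 and 9 and t0 6 held transcripts of male tract epithelium (in that order the mean log2 ratio of 5 such genes was -0.25, 5.94, 5.45 and -2.81, and it was -5.95 to -4.13 elsewhere). HF-AL 5, 7 and 9 held sperm transcripts (means of 1.12, 2.46 and 1.76, and -1.12 to 0.16 elsewhere). The counts of members higher in HF-DR are therefore also given without these 7 arrays. Some other cell types differed as well: of 10 markers each, 9 macrophage and 9 fibroblast markers and 7 adipocyte markers were lower in HF-DR than in HF-AL, and all 4 measured red blood cell genes were higher. Other lists were mixed. Of 8 T and NK cell markers 1 was higher and 7 did not pass the test. Of 7 endothelial markers 1 was higher and 3 lower, of 4 B cell markers 3 and 1, and of 4 muscle markers 1 and 2. The mean level of the adipocyte list per array was -1.39 to -0.07 in HF-DR and -0.11 to 0.47 in HF-AL, and that of the fibroblast list -1.54 to -0.72 and 0.10 to 0.34. The part of these shifts in the results on proteasome genes was not tested. In such bulk tissue, fewer cells of a type and less RNA per cell cannot be told apart.

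Proteasome genes were higher in the restricted mice than in mice that ate ad libitum for as long. Of the 41 genes 32 were higher in HF-DR than in HF-AL, 0 were lower and 9 did not pass the test, where 28.8% of all genes tested were higher and 35.9% lower. At an unadjusted p under 0.05 the count was also 32. A difference above 0 was seen in 36 of the 41 genes, and in 45.8% of all genes. The median log2 difference of the 41 genes was 0.34, beside -0.04 for all genes tested. In 9 of the 41 genes every HF-DR array lay above every HF-AL array, which held for 6.22% of all genes. In all, 6 genes rose by at least 1.5-fold, namely Psmd5, Psme3, Psma6, Psma4, Psmb5 and Psmb7, against 7.99% of all genes. In each of these 6 genes the HF-DR and HF-AL arrays did not overlap, while the other genes that passed rose by under 1.5-fold.

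Taken array by array, the median over the 40 genes without Psmc3ip was 0.27 ± 0.10 in HF-DR, -0.07 ± 0.06 in HF-AL and -0.06 ± 0.06 in t0 (mean ± SD, n = 12 each). The HF-DR arrays did not overlap with either other group. Their lowest medians were those of HF-DR 9 (0.08), HF-DR 3 (0.17) and HF-DR 8 (0.17), and 28 of the 41 genes had their lowest HF-DR value on HF-DR 8 or HF-DR 9, the arrays richest in male tract transcripts. Without the 7 arrays with tract or sperm transcripts 33 of the 41 genes were higher than in HF-AL, and their median difference was 0.37 over all 41. The gene added to the 32 was Psmc3ip, which encodes no subunit. HF-DR 7 to HF-DR 12 and HF-AL 1 to HF-AL 3 were on slides that held no other group, so slide and group cannot be told apart for them. On 3 slides an HF-DR and an HF-AL array had been hybridised side by side. Within each of these slides the median difference of the 40 genes without Psmc3ip, HF-DR minus HF-AL, was 0.21 to 0.45. Of 38 to 40 measured genes 29 to 36 were above 0.

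Upstream sequences are shown for 7 of the genes that rose, to set the letters beside the responses. They are the 250 bases before the transcription start, 5′ to 3′ on the gene's strand, from RefSeq (build GRCm38.p6). Such windows were used for 34 of the 41 genes. Capitals mark TGACNNNGC (or GCNNNGTCA on the other strand), the core of the antioxidant response element that Nfe2l1 and its relatives bind, and CCAAT (or ATTGG), the NF-Y box. The first 5 hold the response element core, and the last 2 are the genes with the largest rises.
Psmb5: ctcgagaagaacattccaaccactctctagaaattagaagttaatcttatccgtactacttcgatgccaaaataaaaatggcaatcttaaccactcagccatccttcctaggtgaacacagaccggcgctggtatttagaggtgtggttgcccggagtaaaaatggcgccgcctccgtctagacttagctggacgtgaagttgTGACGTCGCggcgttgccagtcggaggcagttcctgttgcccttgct
Psmb6: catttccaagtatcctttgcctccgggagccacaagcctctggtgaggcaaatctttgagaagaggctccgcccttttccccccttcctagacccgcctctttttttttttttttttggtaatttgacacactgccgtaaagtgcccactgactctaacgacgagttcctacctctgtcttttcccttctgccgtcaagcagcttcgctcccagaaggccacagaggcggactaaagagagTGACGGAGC
Psmd9: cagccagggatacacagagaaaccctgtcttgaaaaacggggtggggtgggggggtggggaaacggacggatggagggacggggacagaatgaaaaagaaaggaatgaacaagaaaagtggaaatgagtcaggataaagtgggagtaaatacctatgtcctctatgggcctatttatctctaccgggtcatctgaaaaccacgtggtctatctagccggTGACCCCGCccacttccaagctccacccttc
Psmc6: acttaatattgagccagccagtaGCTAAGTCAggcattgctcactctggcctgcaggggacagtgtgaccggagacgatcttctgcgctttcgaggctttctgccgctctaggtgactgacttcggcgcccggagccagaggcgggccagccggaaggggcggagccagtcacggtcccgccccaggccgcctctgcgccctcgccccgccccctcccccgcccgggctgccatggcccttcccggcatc
Psmd12: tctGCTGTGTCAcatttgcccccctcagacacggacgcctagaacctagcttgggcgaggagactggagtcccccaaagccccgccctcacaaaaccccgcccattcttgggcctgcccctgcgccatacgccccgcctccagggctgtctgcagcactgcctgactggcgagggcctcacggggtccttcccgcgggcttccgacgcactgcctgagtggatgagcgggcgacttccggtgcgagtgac
Psme3: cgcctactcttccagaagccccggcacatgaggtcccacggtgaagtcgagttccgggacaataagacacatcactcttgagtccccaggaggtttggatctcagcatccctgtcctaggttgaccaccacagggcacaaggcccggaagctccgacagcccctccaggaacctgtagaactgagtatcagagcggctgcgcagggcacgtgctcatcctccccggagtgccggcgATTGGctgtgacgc
Psmd5: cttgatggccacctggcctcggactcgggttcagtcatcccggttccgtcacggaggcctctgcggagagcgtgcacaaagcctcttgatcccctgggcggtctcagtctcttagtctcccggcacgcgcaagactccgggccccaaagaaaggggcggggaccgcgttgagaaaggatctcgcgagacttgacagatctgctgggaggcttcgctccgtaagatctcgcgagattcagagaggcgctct

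The Psmb5 window lies at chr14:54617996-54618245 (minus strand) and has the core at position -47, counted with -1 as the base before the start. In Psmb6 (chr11:70525107-70525356, plus strand) it stands at -9 and in Psmd9 (chr5:123227940-123228189, plus strand) at -31. Psmc6 (chr14:45329574-45329823, plus strand) and Psmd12 (chr11:107479278-107479527, plus strand) have it on the other strand, at -227 and -247. Psme3 (chr11:101315963-101316212, plus strand) has an NF-Y box on the other strand at -14. No match to either motif is in the window of Psmd5 (chr2:34870963-34871212, minus strand), and none of the printed windows held both.

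The motifs were about as frequent in these windows as elsewhere. The response element core was in 5 of the 37 windows of proteasome genes (13.5%; some genes have more than 1) and in 10.2% of all 32851 windows of that length. All 5 belong to genes that rose, out of 27 windows of such genes, and 0 of the 10 windows of genes that did not change had it. The NF-Y box was in 13 of the 37 windows (35.1%) and in 33.8% of all. A match is a string of letters and no measured binding site. Psma8, Psmb1, Psmb2, Psmb7, Psmc3, Psmd3 and Psmd7 had no window that was used.

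The alpha ring gates the core. Of its 8 genes 6 were higher in HF-DR than in HF-AL, 0 were lower, and the median log2 difference was 0.43. This count and those of the other classes below are read beside 28.8% higher and 35.9% lower over all genes tested. Psma6 ran from 0.31 to 0.93 in HF-DR (median 0.61), from -0.29 to -0.02 in HF-AL (median -0.16) and from -0.25 to 0.11 in t0 (median -0.11). Every HF-DR array was thus above every array of the other groups. The difference from HF-AL was 0.78 ± 0.06 (SE), or 1.72-fold (limma, adjusted p = 1.5e-13). Its probe lies at chr12:56328270-56328329 (mm8, plus strand).

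Psma4, another alpha ring gene, ran from 0.40 to 1.07 in HF-DR (median 0.78) and from -0.30 to 0.33 in HF-AL (median -0.02, 11 arrays after a flagged spot was left out). The groups did not overlap, and the difference was 0.77 ± 0.07 (limma, adjusted p = 1.2e-11). A second probe of the gene gave 0.74. Psma1 ran from 0.15 to 0.69 in HF-DR and from -0.30 to 0.20 in HF-AL, with 11 of 12 HF-DR arrays above the highest HF-AL array and a difference of 0.48 ± 0.06 (limma, adjusted p = 1.4e-08). Psma3, Psma7 and Psma2 rose as well, at 0.51, 0.38 and 0.34, the last with 11 HF-DR arrays.

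Psma5 and Psma8 did not follow the rest of the ring. Psma5 ran from -0.45 to -0.06 in HF-DR and from -0.48 to 0.02 in HF-AL, so that the groups covered much the same range, and its difference was -0.11 ± 0.06 (11 HF-DR arrays, limma, adjusted p = 0.128). With the signals as processed by the scanner software it was called lower, at -0.13 (limma, adjusted p = 0.00666). Psma8, the alpha subunit known from testis, was at -0.11 ± 0.08 (limma, adjusted p = 0.189).

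The beta ring carries the cutting sites, and all 7 of its measured genes were higher in HF-DR, with a median of 0.44. Psmb5 encodes the site that cuts after large hydrophobic residues, the main target of proteasome inhibitors. Its log2 ratio ran from 0.34 to 0.59 in HF-DR (median 0.49), from -0.46 to -0.05 in HF-AL (median -0.27) and from -0.55 to -0.13 in t0 (median -0.26). The HF-DR arrays lay in a narrow band (SD 0.08) well clear of the others. The difference from HF-AL was 0.74 ± 0.04, or 1.67-fold, with the smallest adjusted p of the 41 genes (limma, adjusted p = 4.2e-17). The probe lies at chr14:53568529-53568588 (mm8, minus strand), and the upstream window is printed above.

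Psmb7, which encodes the site that cuts after basic residues, ran from -0.29 to 0.40 in HF-DR (median 0.17), from -0.82 to -0.30 in HF-AL (median -0.56) and from -1.17 to -0.55 in t0 (median -0.69). The HF-DR arrays were all higher, by 0.70 ± 0.08 over HF-AL (limma, adjusted p = 3.4e-10). Psmb6, which encodes the site that cuts after acidic residues, ran from -0.13 to 0.31 in HF-DR (median 0.05) and from -0.26 to 0.02 in HF-AL (median -0.10, 11 arrays). Here 8 of the 12 HF-DR arrays were above the highest HF-AL array, and the difference was 0.20 ± 0.05 (limma, adjusted p = 0.001). The log2 differences of the 3 catalytic genes were thus 0.74, 0.70 and 0.20, and the differences among them were not tested. Of the structural beta genes, Psmb2 rose by 0.55 ± 0.06 (11 HF-AL arrays, limma, adjusted p = 2.4e-09), with 11 HF-DR arrays above all of these. Psmb3, Psmb1 and Psmb4 rose by 0.44, 0.40 and 0.33, and in Psmb4 the groups did not overlap.

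**Figure D1:**
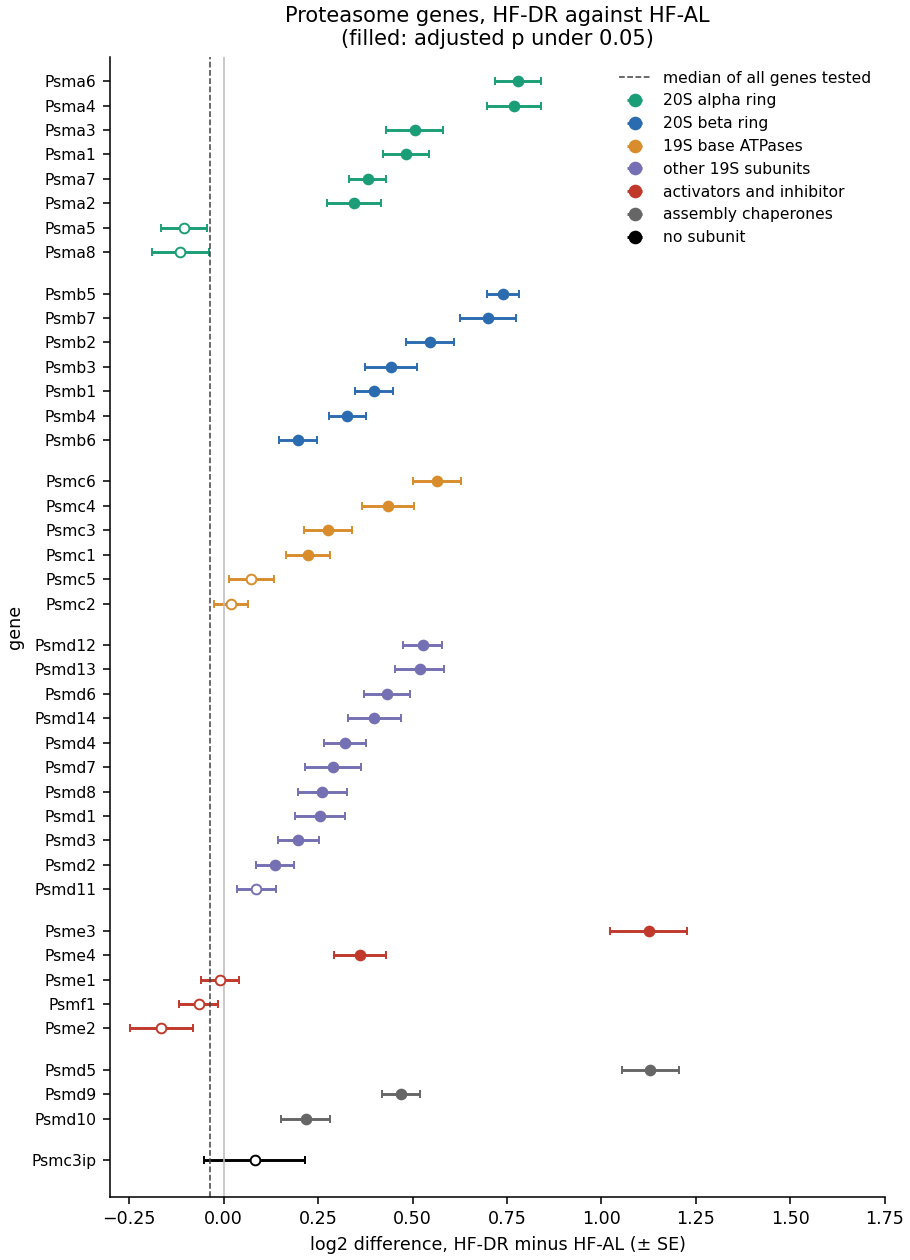
Log2 difference of each proteasome gene between HF-DR and HF-AL with its standard error, ordered within classes, filled where the adjusted p was under 0.05. All 7 beta ring genes and all 3 chaperones are filled, Psmd5 (1.13) and Psme3 (1.13) lie farthest to the right, and no filled point lies below 0.

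The 6 ATPases of the 19S base unfold substrates and push them into the core. Of these genes 4 were higher and 0 lower, with a median of 0.25 and no gene without overlap. Psmc6 ran from 0.20 to 0.73 in HF-DR (median 0.56) and from -0.25 to 0.24 in HF-AL (median -0.09). In 10 arrays HF-DR exceeded all of HF-AL, and the difference was 0.57 ± 0.06 (limma, adjusted p = 1.2e-09). Psmc4 rose by 0.43 ± 0.07 (limma, adjusted p = 1e-06), Psmc3 by 0.28 ± 0.06 (limma, adjusted p = 0.00031) and Psmc1 by 0.22. With the slide as a block, Psmc3 was at 0.09 (limma, adjusted p = 0.324) and was no longer called. Psmc5 at 0.07 and Psmc2 at 0.02 did not pass the test. The other probe of Psmc5 read 0.23 (limma, adjusted p = 0.0115 over all probes), and with the mean over probes the gene was called higher at 0.15 (limma, adjusted p = 0.0384). In the authors' series matrix Psmc5 and Psmc2 were called higher, at 0.22 and 0.24 (limma, adjusted p = 0.0143 and 0.00101).

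The other 19S subunits form the lid and the scaffold and bind ubiquitin. Of 11 genes 10 were higher and 0 lower, with a median of 0.29. Psmd12, a lid subunit, ran from 0.20 to 0.66 in HF-DR (median 0.44), from -0.25 to 0.16 in HF-AL (median -0.14) and from -0.20 to 0.13 in t0 (median 0.03). No HF-DR array overlapped with the other groups, and the difference from HF-AL was 0.53 ± 0.05 (limma, adjusted p = 4.9e-11). Its other probes read 0.52 and 0.71. Psmd13, also of the lid, rose by 0.52 ± 0.06 (limma, adjusted p = 1e-08) and Psmd6 by 0.43 ± 0.06 (limma, adjusted p = 9.5e-08), with 10 and 11 HF-DR arrays above all of HF-AL.

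Psmd14, which encodes the enzyme that removes the ubiquitin chain, was at 0.40, and Psmd4, a ubiquitin receptor, at 0.32. Psmd7, the partner of Psmd14, was at 0.29 (11 HF-AL arrays), and its other probes read 0.48 and -0.06. Psmd8 (11 HF-DR arrays), Psmd1, Psmd3 and Psmd2 rose by 0.26, 0.25, 0.20 and 0.14, and Psmd11 at 0.09 did not pass the test. For Psmd2 the value rested on the probe: its other probe read 0.42 (limma, adjusted p = 1.22e-08 over all probes), and the mean over probes 0.28. With the slide as a block Psmd2 was at 0.11 (limma, adjusted p = 0.201).

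Of the 5 genes for activators and the inhibitor 2 were higher and 0 lower, where 28.8% of all genes were higher and 35.9% lower. The number higher was close to that share, and the median was -0.01. Psme3 encodes the nuclear activator PA28 gamma, which opens the core to proteins without ubiquitin. It ran from 0.01 to 1.26 in HF-DR (median 0.97), from -0.59 to -0.11 in HF-AL (median -0.23) and from -0.46 to 0.03 in t0 (median -0.27). All HF-DR arrays were above all HF-AL arrays, and HF-DR 8 (0.01) and HF-DR 9 (0.16) stood below the other 10, which began at 0.75. The difference from HF-AL was 1.13 ± 0.10, or 2.18-fold (limma, adjusted p = 6.2e-12), and 1.22 without the arrays with tract or sperm transcripts. Its probe lies at chr11:101138961-101139021 (mm8, plus strand).

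Psme4, which encodes the activator PA200, ran from 0.03 to 0.79 in HF-DR and from -0.34 to 0.19 in HF-AL, with a difference of 0.36 ± 0.07 (limma, adjusted p = 2.3e-05). Psme1 and Psme2 encode the subunits of the interferon-inducible cytosolic activator. Psme1 ran from -0.37 to 0.03 in HF-DR and from -0.37 to 0.20 in HF-AL, a difference of -0.01 ± 0.05 (limma, adjusted p = 0.868). Psme2 was at -0.16 ± 0.08 (limma, adjusted p = 0.0776). Neither passed the test, and the ranges of the groups overlapped. Psmf1, the inhibitor PI31, was at -0.07 ± 0.05 (limma, adjusted p = 0.267), but its probes disagreed: the other 2 read 0.18 and 0.30 and were called higher (limma, adjusted p = 0.00768 and 0.000263 over all probes).

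The assembly chaperones of the base were all higher, 3 of 3, with a median of 0.47. Psmd5, which binds the ATPase ring during its assembly and can hold the 19S particle off the core, ran from 0.63 to 1.25 in HF-DR (median 0.95), from -0.55 to 0.17 in HF-AL (median -0.17) and from -0.58 to -0.08 in t0 (median -0.25). The lowest HF-DR array was well above the highest of the other groups. The difference from HF-AL was 1.13 ± 0.08, or 2.19-fold (limma, adjusted p = 2.3e-15), and 0.96 to 1.23 over the 11 other ways of processing. Psmd5 and Psme3 had the largest differences of the 41 genes, and which of them came first changed with the processing. The Psmd5 probe lies at chr2:34674597-34674656 (mm8, minus strand).

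Psmd9 ran from 0.20 to 0.65 in HF-DR and from -0.25 to 0.17 in HF-AL without overlap, a difference of 0.47 ± 0.05 (limma, adjusted p = 4.8e-10). Its dimmer probe read 0.10 (limma, adjusted p = 0.0812 over all probes). Psmd10, the chaperone gankyrin, rose by 0.22 ± 0.06 (limma, adjusted p = 0.00373), and was at 0.15 with the slide as a block (limma, adjusted p = 0.208). Psmg1, Psmg2 and Psmg3, chaperones of the core, carry older names in the files and so fall outside the 41 genes. All 3 were higher, at 0.50 ± 0.06 (11 HF-AL arrays), 0.28 ± 0.06 and 0.35 ± 0.05 (limma, adjusted p = 1.2e-09, 5e-05 and 2.4e-07).

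Psmc3ip, which encodes no subunit, ran from -0.39 to 0.48 in HF-DR and from -0.33 to 1.22 in HF-AL, a difference of 0.08 ± 0.13 (limma, adjusted p = 0.611). Its highest HF-AL values were on HF-AL 7 (1.22), HF-AL 9 (1.09) and HF-AL 5 (0.69), the arrays with sperm transcripts. Without the 7 arrays with tract or sperm transcripts the difference was 0.35 (limma, adjusted p = 0.000309).

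**Figure D2:**
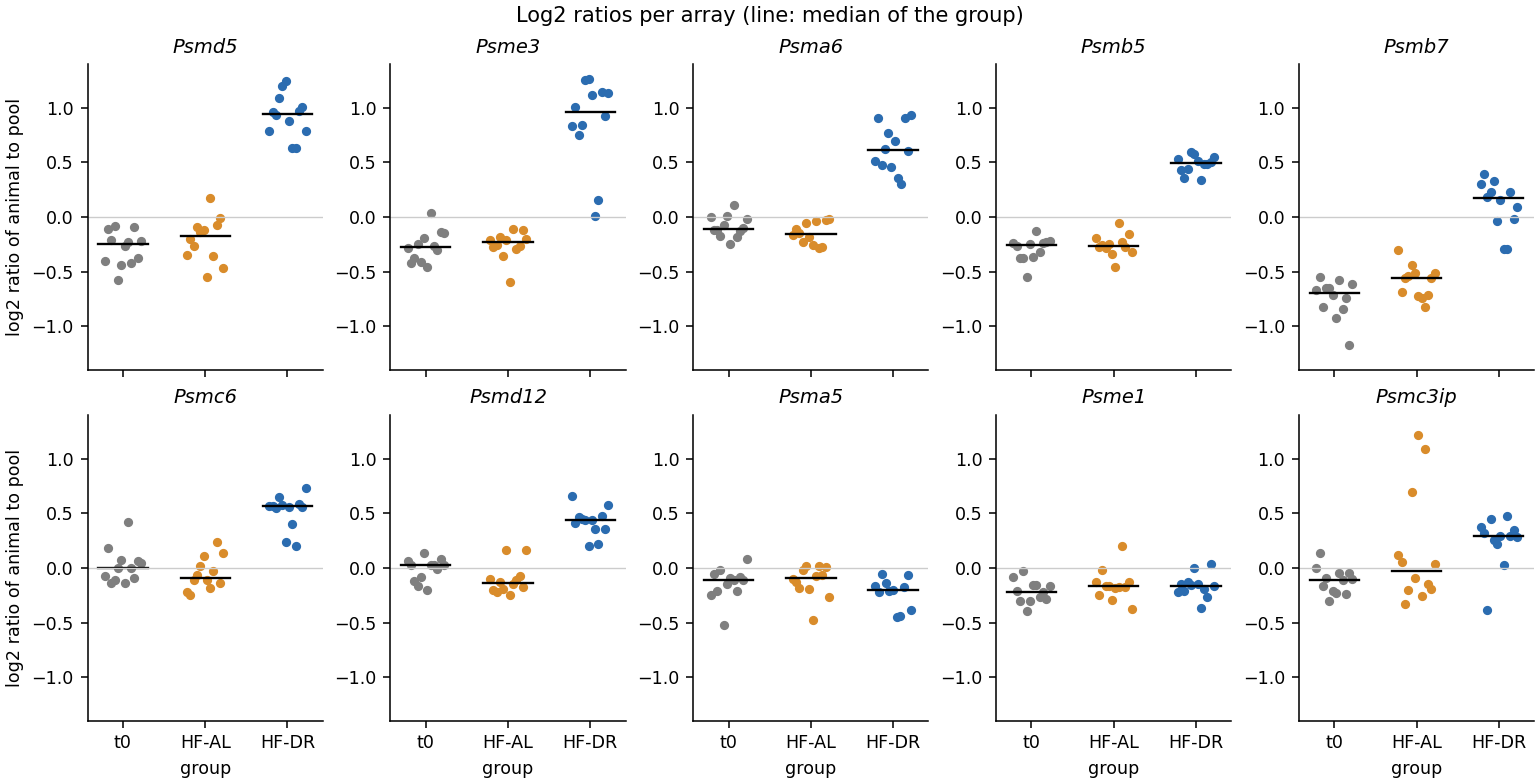
Log2 ratio to the pool on each array for 10 genes by group (points, 1 per array, and the group's median as a line). Psmd5, Psma6, Psmb5, Psmb7 and Psmd12 separate HF-DR from both other groups, Psme3 has 2 low HF-DR arrays, Psma5 and Psme1 overlap in all groups, and Psmc3ip has 3 high HF-AL arrays.

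Mice fed for 12 more weeks ad libitum were also set against t0. None of the 41 genes was called in either direction (limma, smallest adjusted p = 0.322), where 0.685% of all genes tested were. At an unadjusted p under 0.05 there were 3, namely Psma1 at -0.13, Psmd4 at -0.11 and Psmc3ip at 0.28. The median difference of the 41 genes was 0.01 and the range was -0.13 to 0.28. On the 9 slides with an HF-AL and a t0 array the median of the 40 genes without Psmc3ip lay between -0.13 and 0.07.

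Against t0 the genes were higher in HF-DR too. This comparison shares the HF-DR arrays with that against HF-AL. Of the 41 genes 32 were higher and 0 lower, where 28.8% of all genes were higher and 33% lower, and the median was 0.35. The count was 31 without the 7 arrays with tract or sperm transcripts, where Psmc3 lost its call (0.11, limma, adjusted p = 0.0773). It was 28 with the slide as a block, where Psmc3 (0.05), Psmc1 (0.16), Psmd1 (0.15) and Psmc3ip lost theirs (limma, adjusted p = 0.544, 0.0554, 0.123 and 0.0805), and 28 to 37 over the 11 alternatives. The groups did not overlap in 10 genes (7.51% of all genes). Psmd5 differed by 1.21 ± 0.08 (limma, adjusted p = 3.1e-16), Psme3 by 1.14 ± 0.10 (limma, adjusted p = 4.6e-12), Psmb7 by 0.85 ± 0.08 (limma, adjusted p = 2.9e-12) and Psmb5 by 0.78 ± 0.04 (limma, adjusted p = 9.7e-18). In Psme3 the lowest HF-DR array (0.01) overlapped with the highest t0 array (0.03). With the probes used, Psmd2 was the only gene higher than HF-AL and not called against t0 (0.07, limma, adjusted p = 0.216), but its other probe read 0.24 (limma, adjusted p = 0.000199 over all probes). Psmc3ip was the only one called against t0 alone (0.36, limma, adjusted p = 0.0187). On the 6 slides with both groups the median of the 40 genes without Psmc3ip lay between 0.19 and 0.47.

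**Figure D3:**
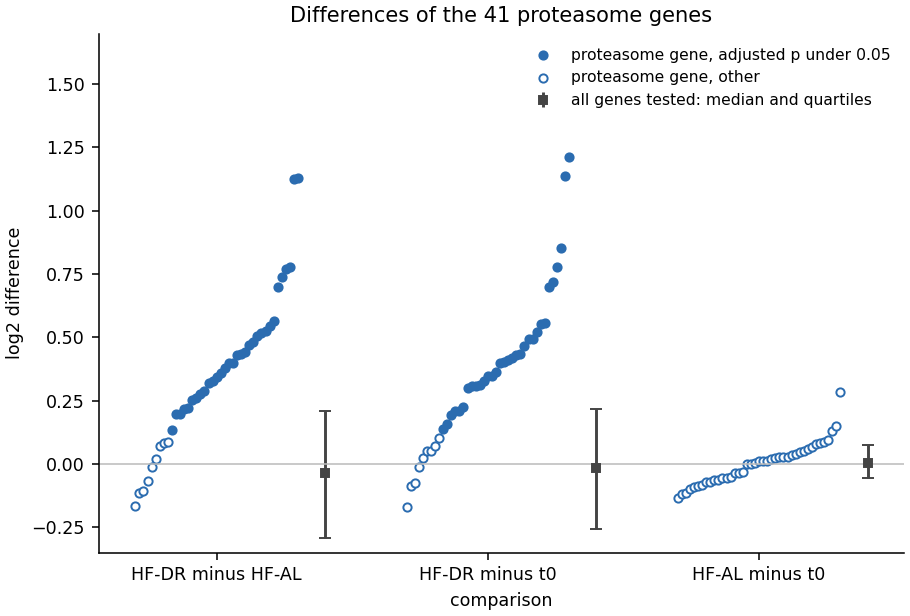
Log2 differences of the 41 proteasome genes in the 3 comparisons (points in order of size, filled where the adjusted p was under 0.05), with the median and quartiles of all genes tested. The medians of the 41 genes are 0.34 for HF-DR minus HF-AL, 0.35 for HF-DR minus t0 and 0.01 for HF-AL minus t0.

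Genes that work with the proteasome were examined as 7 lists. Of 44 measured genes 23 were higher and 9 lower in HF-DR than in HF-AL, with a median of 0.15, beside 28.8% higher, 35.9% lower and a median of -0.04 over all genes tested. The counts of the single lists are read against the same shares. Psmb8, Psmb9 and Psmb10 encode the immunoproteasome's catalytic subunits, which replace those of Psmb5, Psmb6 and Psmb7 in immune cells and under interferon. Psmb10 ran from -0.59 to 0.23 in HF-DR (median -0.18) and from -0.13 to 0.33 in HF-AL (median 0.04). The ranges overlapped, and the difference was -0.26 ± 0.08 (limma, adjusted p = 0.00329). Psmb8 was at -0.26 ± 0.13 (limma, adjusted p = 0.0747) and Psmb9 at -0.14 ± 0.15 (limma, adjusted p = 0.43). With the slide as a block Psmb10 was at -0.24 (limma, adjusted p = 0.0587), and in the authors' series matrix at -0.02 (limma, adjusted p = 0.853), so that its call was lost. None of the 3 was higher, and their constitutive counterparts all were; this contrast was not itself tested. Macrophage markers moved the same way as Psmb10 (median -0.75 in HF-DR against HF-AL, mean level per array -1.31 to -0.36 in HF-DR and -0.20 to 0.28 in HF-AL), and their part in its difference was not tested.

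Of the 19S subunits and assembly factors outside the rule 3 of 4 were higher and 0 lower. Adrm1, a ubiquitin receptor of the 19S particle, ran from -0.15 to 0.59 in HF-DR (median 0.42) and from -0.22 to 0.08 in HF-AL (median -0.01), a difference of 0.38 ± 0.06 (limma, adjusted p = 1.1e-06). Pomp, which guides the maturing beta subunits, rose by 0.20 ± 0.07 (limma, adjusted p = 0.00937), and Ecpas, which clamps the core to the 19S particle, by 0.12 ± 0.04 (limma, adjusted p = 0.0167). Sem1, the smallest lid subunit, was at -0.05. Adjusted p of Pomp and Ecpas was 0.0845 and 0.0815 with the slide as a block.

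Of the enzymes and other proteins bound to the proteasome 5 of 7 were higher and 2 lower, where 28.8% of all genes were higher and 35.9% lower. Uchl5, the deubiquitinase that Adrm1 recruits, ran from 0.40 to 0.79 in HF-DR (median 0.57) and from -0.28 to 0.18 in HF-AL (median -0.18). The groups did not overlap, and the difference was 0.67 ± 0.05 (limma, adjusted p = 1.6e-13). Txnl1, a thioredoxin-like protein of the 19S particle, rose by 0.48 ± 0.06 (limma, adjusted p = 6.6e-09). Ube3a, a ubiquitin ligase, fell by 0.44 on the log2 scale, from a range of -0.20 to 0.15 in HF-AL to -0.67 to -0.19 in HF-DR (limma, adjusted p = 1.4e-10).

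**Figure D4:**
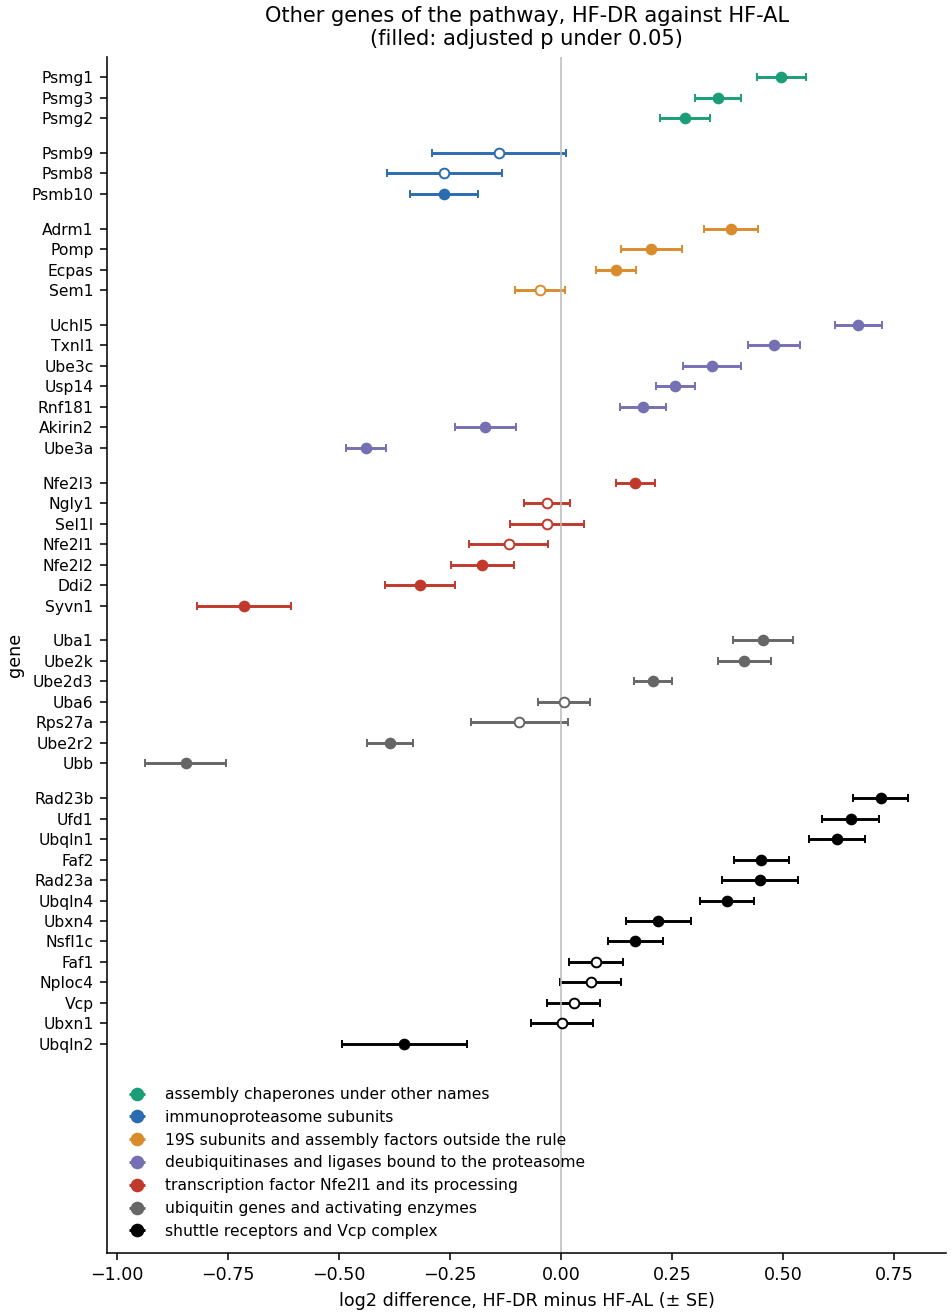
Log2 difference between HF-DR and HF-AL, with its standard error, of 44 other genes of the pathway grouped by role and filled where the adjusted p was under 0.05. Rad23b (0.72), Uchl5 (0.67), Ufd1 (0.65) and Ubqln1 (0.62) lie at the right end, and Ubb (-0.85) and Syvn1 (-0.71) at the left.

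Ubiquitin shuttles and partners of the unfolding ATPase Vcp were higher in 8 of 13 and lower in 1, where 28.8% of all genes were higher and 35.9% lower. Rad23b, which carries ubiquitinated proteins to the proteasome, ran from 0.31 to 1.00 in HF-DR and from -0.42 to -0.07 in HF-AL. All HF-DR arrays were higher, by 0.72 ± 0.06 (limma, adjusted p = 1.3e-12). Ufd1, a cofactor of Vcp, rose by 0.65 ± 0.06 (limma, adjusted p = 4.4e-11) and the shuttle Ubqln1 by 0.62 ± 0.06 (limma, adjusted p = 9e-11), both without overlap. Vcp itself was at 0.03 ± 0.06 (limma, adjusted p = 0.692).

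Of the genes for ubiquitin and its activating and conjugating enzymes 3 of 7 were higher and 2 lower, close to the shares over all genes (28.8% and 35.9%). Ubb, a polyubiquitin gene, ran from -1.24 to -0.25 in HF-DR (median -0.88) and from -0.56 to 0.41 in HF-AL (median 0.00). It was the gene with the deepest fall in the 7 lists, at -0.85 ± 0.09 (limma, adjusted p = 3.7e-10). Rps27a, which encodes ubiquitin fused to a ribosomal protein, was at -0.09 and did not pass the test. Because ubiquitin genes share near-identical coding sequence, signal from one can reach the probe of another. Ube2r2 fell by 0.39 and Ube2k rose by 0.41 (limma, adjusted p = 4.8e-08 and 1.7e-07), both ubiquitin-conjugating enzymes.

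Of the list of Nfe2l1, its relatives and the proteins that process it 1 of 7 genes was higher and 3 were lower, where 28.8% of all genes were higher and 35.9% lower. Nfe2l1 ran from -0.59 to 0.33 in HF-DR (median 0.08) and from -0.02 to 0.35 in HF-AL (median 0.10). The ranges overlapped, and the difference was -0.12 ± 0.09 (limma, adjusted p = 0.251). Its activity is known to be set mostly at the level of the protein, which was not measured. Syvn1, the ligase that marks Nfe2l1 for removal at the endoplasmic reticulum, was at -0.71 ± 0.11 (limma, adjusted p = 3e-07), and Ddi2, the protease that cuts it free, at -0.32 ± 0.08 (limma, adjusted p = 0.00067). The related factor Nfe2l3 rose by 0.17 ± 0.04 (limma, adjusted p = 0.00095). For Ddi2 and Nfe2l3 the call rested on the probe used: with the mean over probes they were at -0.06 and 0.02 and no longer called.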

How the data were processed

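The deposited data are scanner tables of 36 Agilent 4x44k arrays in 2 colours, made with Feature Extraction 9.5.3.1 according to the submitters' processing notes. The intensity values used were, per the file headers, mean spot signals and median local backgrounds, not normalized. The deposited series matrix holds log2 Cy5 levels of 22510 probes (r of at least 0.980 with log2 Cy5, medians per array 9.26 to 9.29). Its normalization by the authors is not stated in the sources used here. Background was corrected with normexp (limma 3.58.1, R 4.3.3, offset 50), fitted without 84 spots of net signal under -50, and ratios were normalized by loess. Control spots had weight 0, and flagged spots were left out (0.307% of the values of genes tested). Probes entered if well above background in Cy5 on 9 or more arrays of any group (24706 of 41174 probes), and the brightest probe of a gene was used. Groups were compared with limma in 1 fit, two-sided.

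The genes, lists, motifs and settings were chosen with earlier results of these data known. Of each class of proteasome genes the 3 with the smallest adjusted p, the catalytic genes, any member changed against its class or between HF-AL and t0, and of each other list the 3 with the smallest adjusted p were named, with Nfe2l1, Pomp, Adrm1, Psmb8, Psmb9 and Psmb10 in any case. Other members were named after their values were seen, and a few genes of the lists are not reported here. The 11 alternatives were other background corrections, scaling, probe filters and summaries, the series matrix, slide and replicate blocks, and fewer arrays. On simulated data for HF-DR against HF-AL with 16502 genes, log2 differences of 0.3 and 0.5 were planted in 100 genes each. The fit recovered 52% and 88% of them, and 7.28% of its calls were false. In the data far more genes were called (28.8% higher and 35.9% lower), so the cut on p was stricter in the simulation. Its shares therefore do not give the share of such differences found here. Probe coordinates are mm8 per the file headers. No 2 arrays correlated above 0.940. Same-numbered arrays of HF-DR and HF-AL deviated together weakly (median r 0.206, and 0.033 for differently numbered arrays). Of these 12 pairs 9 had an r over 0.1, against 2 in HF-AL with t0 and 0 in HF-DR with t0. Own number was the best match for 2 of 12. Numbers were not taken as pairs in the main fit, and the replicate block is among the alternatives. The labels do not say whether mice shared cages, so p-values measure the spread between these animals.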

Additional observations from a re-analysis of the deposited data

How the results depend on the processing

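Between HF-DR and HF-AL 29 of the 32 genes called higher remained so under all 11 alternatives, and the count ran from 29 (slide as a block) to 36 (series matrix). With the replicate block 32 genes were higher in HF-DR than in HF-AL and in HF-DR than in t0, with medians of 0.35 and 0.35, and no call of a member changed. Genes called lower numbered 2 in HF-DR against HF-AL with the processed signals (Psma5 and Psme2), and in HF-DR against t0 1 with normexp on all spots (Psma8), 1 with the processed signals (Psma5) and 1 with only the 2 groups compared (Psma8). With the series matrix the medians were 0.55 (HF-DR against HF-AL) and 0.47 (HF-DR against t0); the cause was not tested. With the slide as a block Psmc3, Psmd10 and Psmd2 were no longer higher than in HF-AL.

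With the mean over probes Psmf1 turned to 0.14 against HF-AL and 0.13 against t0, and Nfe2l3 to -0.025 against t0. With the series matrix Psme1 turned to 0.21 against HF-AL. Another 72 of 2076 values changed sign with neither value past the threshold. Between HF-AL and t0, no member was called under any alternative, while all genes called numbered 113, 511 with scaling and 305 with only those 2 groups. The share of higher among these calls was 66.4%, against 44.1% with the processed signals or the series matrix and 83.5% with normexp on all spots. Probes near background and the single dye orientation limit small differences.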
